A study of Mus musculus with 15 samples.

Results

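A group of 9 genes that intestinal epithelial cells use to make oxidants and defence proteins was followed in the ileum of 15 mice dosed with proanthocyanidins (PAC), the flavan-3-ol polymers of grape pomace, or with water. The members were chosen by gene symbol as Nos2, Duox2, Duoxa2, Nox1, Saa1, Saa2, Saa3, Sprr2a1 and Fut2, which are 9 of the 17752 genes listed in at least 1 mouse. The 3 groups of 5 female C57BL/6 mice (C57BL/6JOlaHsd by the methods) received water, low molecular weight PAC (low PAC) or high molecular weight PAC (high PAC). Both PAC fractions were given by oral gavage at 200 mg/kg every second day for 10 days, and the labels give an age of 8 weeks for all mice. The methods describe the pair of fractions as low and medium by their mean degree of polymerization, so the fraction labelled high was taken as the medium one. RNA from 1 piece of ileum per mouse was sequenced as 1 library. A piece of ileum is a mixture of cells, so fewer cells of a type and less RNA per cell cannot be told apart.

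The ileal epithelium meets bacteria at its surface and switches this set of genes on when they come close. Nos2 makes nitric oxide from arginine, Duox2 releases hydrogen peroxide at the apical membrane with its maturation factor Duoxa2, and Nox1 makes superoxide. The serum amyloid A proteins are acute-phase proteins of the liver that the gut wall also makes, Sprr2a is a small proline-rich protein of the gut lumen, and Fut2 adds fucose to surface glycans. Interleukin-22 from innate lymphoid cells, acting through Stat3, and the interleukin-17 pathway are known inducers of several of them, together with the antibacterial lectins Reg3b and Reg3g.

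The libraries held between 15963086 and 17903886 expected counts, which are the estimated read pairs per gene. Members were read on 2 scales, the expected count and FPKM (fragments scaled by gene length and library size). The sum of 8 epithelial markers lay between 6033 and 7331 FPKM in the 15 mice, and the distal ileum list between 6458 and 12918 FPKM. The library of high PAC 3 stood apart, with the lowest median correlation to the others (r = 0.965) and the highest value of the 15 mice for 27.8% of the 14386 genes tested. Its B cell markers summed to 243 FPKM, in a range of 6.28 to 251.5 FPKM over the mice. Replicates are single mice of 1 group, and p-values measure the spread between these mice.

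The members that lie beside each other in the genome can be compared by their promoters. The stretches below run from 250 bases before to 50 bases after each gene start and are RefSeq sequences of GRCm38.p6. The serum amyloid genes and the Duox2 pair are shown because members of 1 locus differed in level or moved together. Of the 9 members, 7 had a promoter in the table. Capitals mark matches, on either strand, to TTGCNNAA, a short motif of C/EBP factors. The sequences of the serum amyloid genes are from chr7:46742931-46743230 (Saa1, minus strand), chr7:46751583-46751882 (Saa2, plus strand) and chr7:46715627-46715926 (Saa3, minus strand).
Saa1: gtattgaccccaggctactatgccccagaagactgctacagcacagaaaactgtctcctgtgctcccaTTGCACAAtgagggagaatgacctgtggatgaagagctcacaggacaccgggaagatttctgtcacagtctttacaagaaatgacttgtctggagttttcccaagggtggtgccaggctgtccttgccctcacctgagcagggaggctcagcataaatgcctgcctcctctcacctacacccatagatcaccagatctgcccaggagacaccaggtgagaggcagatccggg
Saa2: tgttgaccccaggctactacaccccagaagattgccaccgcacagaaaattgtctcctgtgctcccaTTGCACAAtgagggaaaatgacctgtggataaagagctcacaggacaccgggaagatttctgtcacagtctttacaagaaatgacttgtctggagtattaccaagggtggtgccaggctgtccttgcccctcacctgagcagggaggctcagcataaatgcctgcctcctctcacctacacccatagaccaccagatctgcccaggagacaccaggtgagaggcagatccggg
Saa3: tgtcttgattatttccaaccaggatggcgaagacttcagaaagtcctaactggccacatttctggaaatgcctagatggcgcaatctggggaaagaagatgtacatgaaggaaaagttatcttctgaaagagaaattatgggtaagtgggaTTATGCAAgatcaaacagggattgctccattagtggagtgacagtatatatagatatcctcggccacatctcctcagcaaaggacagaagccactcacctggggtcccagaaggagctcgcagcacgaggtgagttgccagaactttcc
The Saa1 and Saa2 stretches were identical at 287 of 301 aligned columns (95.3%), while Saa3 shared 54.2% with Saa1. Each of the 3 held 1 match, starting at base -182 in Saa1, -183 in Saa2 and -99 in Saa3 from the gene start. Of 32851 promoters in the table, 10.8% held this motif.

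Duox2 and Duoxa2 are transcribed away from each other, with 450 bases between the genes as annotated in GENCODE. Their promoters, placed from the RefSeq starts, are chr2:122298178-122298477 (Duox2, minus strand) and chr2:122298650-122298949 (Duoxa2, plus strand). The sources place the Duox2 start differently. In GENCODE the gene reaches to base 122298449, so most of the Duox2 stretch before the RefSeq start lies inside the GENCODE gene.
Duox2: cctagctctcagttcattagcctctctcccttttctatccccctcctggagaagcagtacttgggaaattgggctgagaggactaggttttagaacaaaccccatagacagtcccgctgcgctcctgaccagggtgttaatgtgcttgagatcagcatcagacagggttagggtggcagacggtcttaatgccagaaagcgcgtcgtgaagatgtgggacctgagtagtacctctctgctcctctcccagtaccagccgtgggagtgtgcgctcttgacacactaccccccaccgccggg
Duoxa2: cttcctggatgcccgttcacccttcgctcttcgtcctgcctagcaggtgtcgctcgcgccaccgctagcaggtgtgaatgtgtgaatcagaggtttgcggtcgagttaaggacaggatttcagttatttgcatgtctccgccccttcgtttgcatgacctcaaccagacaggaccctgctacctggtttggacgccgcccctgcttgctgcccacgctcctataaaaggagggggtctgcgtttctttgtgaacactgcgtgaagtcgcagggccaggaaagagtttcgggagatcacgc
Neither stretch held the C/EBP motif or TTCNNNGAA, a motif of STAT factors that 8.30% of promoters held on either strand, and the STAT motif was absent from the other 5 promoters of members as well. A match is a string of letters and was not tested as a binding site.

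In GRCm38 the annotated genes span chr11:78920787-78960254 (Nos2), chr2:122279247-122298449 (Duox2), chr2:122298900-122302885 (Duoxa2), chrX:134086421-134221956 (Nox1), chr7:46740497-46742980 (Saa1), chr7:46751790-46754313 (Saa2), chr7:46711998-46715700 (Saa3), chr3:92215799-92221911 (Sprr2a1) and chr7:45648591-45666394 (Fut2). All 9 are protein-coding, and the values are of whole genes. Duoxa2 ends inside Duoxa1, which lies on the other strand, and whether strand was used in counting is not given in the sources used here.

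The levels of the members spread widely. By mean FPKM over 15 mice the order was Sprr2a1 (276.5 FPKM), Nos2 (39.3), Saa1 (19.0), Duox2 (10.8), Duoxa2 (5.07), Fut2 (1.61), Saa3 (1.03), Nox1 (0.265) and Saa2 (0.050). FPKM is per length, so genes can be set beside each other on it. Between the highest and lowest mouse, Sprr2a1 differed 2.14-fold, against 12.4-fold for Nos2, 10.4-fold for Duox2, 13.8-fold for Duoxa2 and 12.1-fold for Fut2. Saa1 ran from 0 to 165 FPKM, and its mean lay above that of Duox2 although its median was lower. The Saa1 median was 4.03 FPKM, below the Duox2 median of 7.55 FPKM and the Nos2 median of 29.6 FPKM. The ranges of Duoxa2 and Duox2 overlapped, as did those of Saa3 and Fut2.

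**Figure D1:**
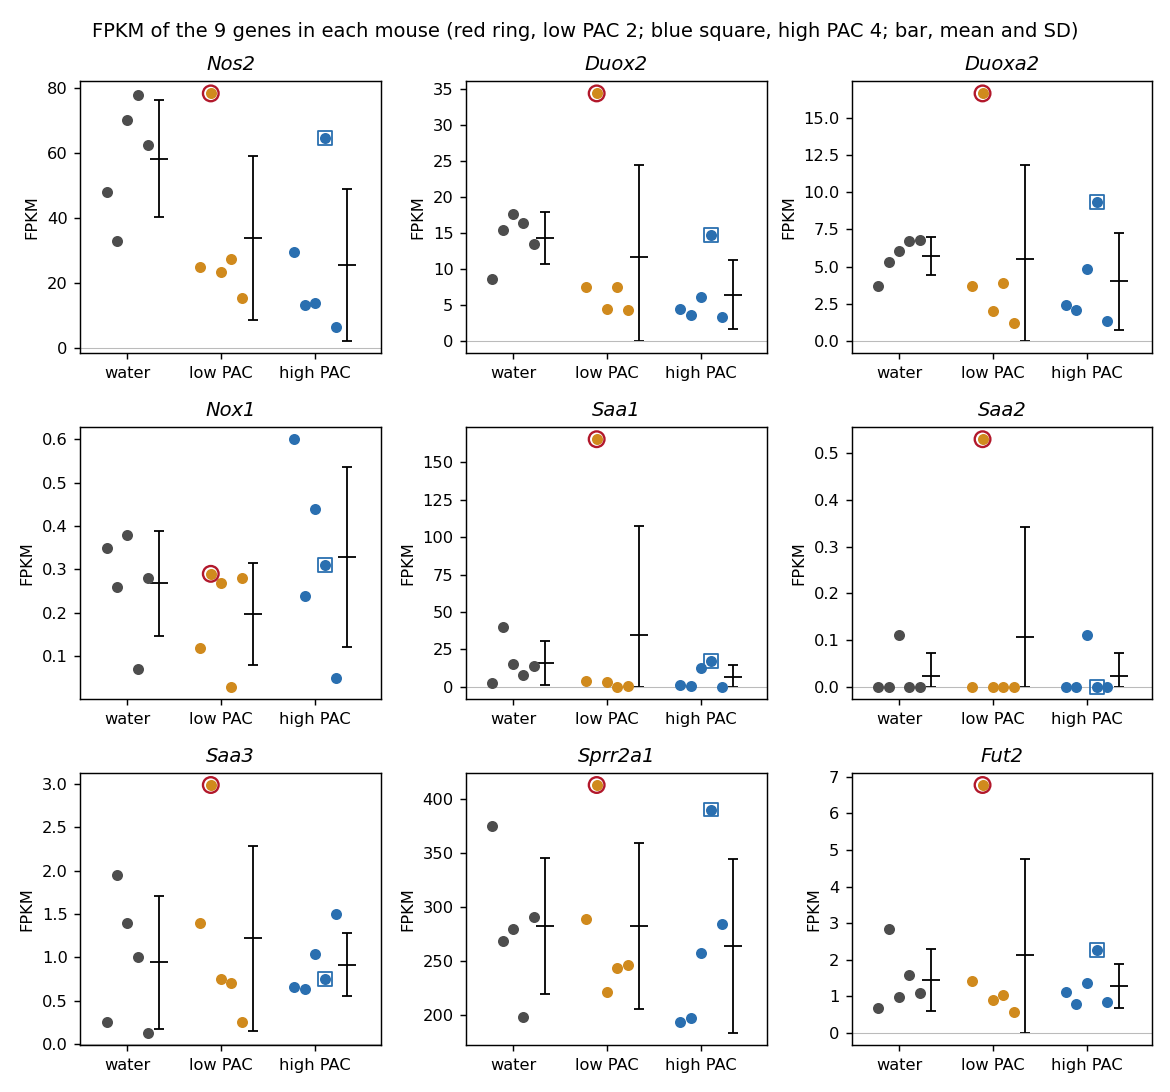
FPKM (vertical axes, 1 scale per gene) of the 9 genes in each mouse of the water, low PAC and high PAC groups; points are mice and the bars give the mean and SD, stopped at 0. The ringed mouse, low PAC 2, was the highest of 15 in every panel except Nox1, and the squared mouse, high PAC 4, was the highest of its group in Nos2, Duox2, Duoxa2, Saa1, Sprr2a1 and Fut2.

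Among the oxidant enzymes, Nos2 was highest in the water group. The water mice 1 to 5 had 47.9, 32.9, 70.3, 78.1 and 62.5 FPKM. The low PAC mice had 25.1, 78.4, 23.4, 27.5 and 15.5 FPKM, and the high PAC mice 29.6, 13.4, 13.9, 64.6 and 6.30 FPKM. In both PAC groups, 4 of 5 mice lay below the lowest water mouse, and the remaining mice, low PAC 2 and high PAC 4, lay inside or above the water range. The group means were 58.3 ± 18.1 FPKM with water, 33.97 ± 25.3 FPKM with low PAC and 25.5 ± 23.4 FPKM with high PAC (SD, n = 5).

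Duox2 showed the same split. The water mice had 8.54, 15.4, 17.7, 16.4 and 13.5 FPKM. The low PAC mice had 7.48, 34.4, 4.44, 7.55 and 4.34 FPKM, and the high PAC mice 4.44, 3.57, 6.15, 14.7 and 3.30 FPKM. Again 4 of 5 mice in each PAC group lay below the lowest water mouse, and low PAC 2 lay above the highest one. Means were 14.3 ± 3.56, 11.6 ± 12.8 and 6.43 ± 4.76 FPKM with water, low PAC and high PAC (SD, n = 5).

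Duoxa2, whose product brings Duox2 to the cell surface, had 3.7, 5.28, 6.05, 6.74 and 6.77 FPKM in the water mice. It had 3.66, 16.6, 1.98, 3.90 and 1.21 FPKM in the low PAC mice and 2.42, 2.11, 4.84, 9.35 and 1.35 FPKM in the high PAC mice. The groups overlapped, and the highest values again belonged to low PAC 2 and high PAC 4. The ratio of Duoxa2 to Duox2 FPKM stayed between 0.279 and 0.787 in the 15 mice, with means of 0.406 ± 0.066 (water), 0.443 ± 0.095 (low PAC) and 0.594 ± 0.138 (high PAC; SD, n = 5). Nox1, mainly an enzyme of the colon, was near the lower limit of the measurement, with 0.03 to 0.60 FPKM and 1.06 to 25.3 expected counts, and its groups overlapped.

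Saa1 differed most between low PAC 2 and the other mice among the tested members. The water mice had 2.26, 40.1, 15.2, 7.74 and 13.98 FPKM, the low PAC mice 4.03, 165, 2.86, 0 and 0.33 FPKM, and the high PAC mice 1.47, 0.53, 12.8, 17.5 and 0.11 FPKM. Low PAC 2 alone held 1562 expected counts of Saa1, and low PAC 4 listed none. Without low PAC 2 the low PAC group ran from 0 to 4.03 FPKM, a range that the water group overlapped only by its lowest mouse. Saa2, which carries nearly the same promoter letters as Saa1, was listed in 3 of 15 mice, with 0.11 FPKM in water 3 and high PAC 3 (1 expected count each) and 0.53 FPKM in low PAC 2 (5 expected counts). No 100-base window of the annotated transcripts was shared between Saa1 and another gene or between Saa2 and another gene. How the counting tool treated reads of similar genes is not given in the sources used here. Saa3 had 0.13 to 1.95 FPKM with water, 0.25 to 2.99 FPKM with low PAC and 0.63 to 1.5 FPKM with high PAC, on at most 24 expected counts, and the groups overlapped.

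Sprr2a1 was the most abundant and least variable member, with 198 to 375 FPKM in the water mice, 221 to 413 FPKM in the low PAC mice and 193 to 390 FPKM in the high PAC mice. Its means of 282 ± 63.0, 283 ± 76.8 and 264 ± 80.5 FPKM differed by less than 1 SD (n = 5). It shares 92.5% of its 100-base windows with other genes, 88.9% with Sprr2a2 alone, and the Sprr2a1 and Sprr2a2 promoters were identical over all 300 bases and the annotated genes overlap, so the split of reads between these paralogs is uncertain. Sprr2a2 had 324 ± 59.8 FPKM with water, 322 ± 116 FPKM with low PAC and 279 ± 66.1 FPKM with high PAC (SD, n = 5), and its ratio to Sprr2a1 ran from 0.911 to 1.304 over the mice. Summing the counts of Sprr2a1, Sprr2a2 and Sprr2a3 and those of Saa1 and Saa2 reversed none of the members' fold changes.

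Fut2, the fucosyltransferase of the secretory epithelium, had 0.68, 2.84, 0.98, 1.58 and 1.07 FPKM in the water mice. The low PAC mice had 1.41, 6.78, 0.90, 1.02 and 0.56 FPKM, and the high PAC mice 1.12, 0.78, 1.37, 2.26 and 0.83 FPKM. The 3 groups overlapped, and low PAC 2 lay above every other mouse. The other fucosyltransferases with a mean of at least 1 FPKM, Fut4, Fut8 and Fut11, had group means of 9.24 to 10.3 FPKM, 43.3 to 44.2 FPKM and 3.92 to 4.25 FPKM. Of 24 paralogs of the members, 8 were tested, and in high PAC against water 1 was lower at an unadjusted edgeR p under 0.05, where 10.4% of all genes were, and none passed the adjusted threshold. It was Sprr2a3, with 59.3 ± 8.44 FPKM with water, 52.6 ± 22.4 FPKM with low PAC and 41.6 ± 11.6 FPKM with high PAC (SD, n = 5; edgeR adjusted p = 0.274 in high PAC), while Sprr1a had means of 5.39, 6.34 and 6.32 FPKM.

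High PAC was compared with water to ask whether the longer polymers alter these genes. The edgeR fold change of Nos2 was -1.28 on the log2 scale (SE 0.55, 95% interval -2.45 to -0.12), with an unadjusted p of 0.033 and an adjusted p of 0.30. The exact permutation test gave p = 0.040 (two-sided, log2(FPKM + 0.1), n = 5), where 0.0079 is the smallest p that 252 splits allow. Duox2 had -1.24 (SE 0.56, 95% interval -2.42 to -0.05), an unadjusted edgeR p of 0.042, an adjusted p of 0.319 and an exact permutation p of 0.024. Neither gene passed the adjusted threshold of edgeR, which 2 of 14386 genes passed (0.0139%). At an unadjusted edgeR p under 0.05, 10.4% of the genes tested were lower in high PAC and 4.37% higher, and at an exact permutation p under 0.05, 3.23% were lower and 14.2% higher, against 2 of the 8 members tested by both.

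The other members did not pass any of these thresholds in high PAC. Their log2 fold changes against water were -0.59 for Duoxa2, 0.21 for Nox1, -1.36 for Saa1 (SE 1.40), -0.12 for Saa3, -0.19 for Sprr2a1 and -0.25 for Fut2. Over the 8 members tested, 7 were lower and 1 higher, with a median of -0.42 against 0.00 over all genes, of which 49.5% were below 0. Saa2 had too few counts for the test. Without high PAC 3, the library that stood apart, the values were -1.09 for Nos2 and -1.19 for Duox2. Without high PAC 4, they were -2.01 for Nos2 (edgeR adjusted p = 0.120) and -1.82 for Duox2 (edgeR adjusted p = 0.167).

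**Figure D2:**
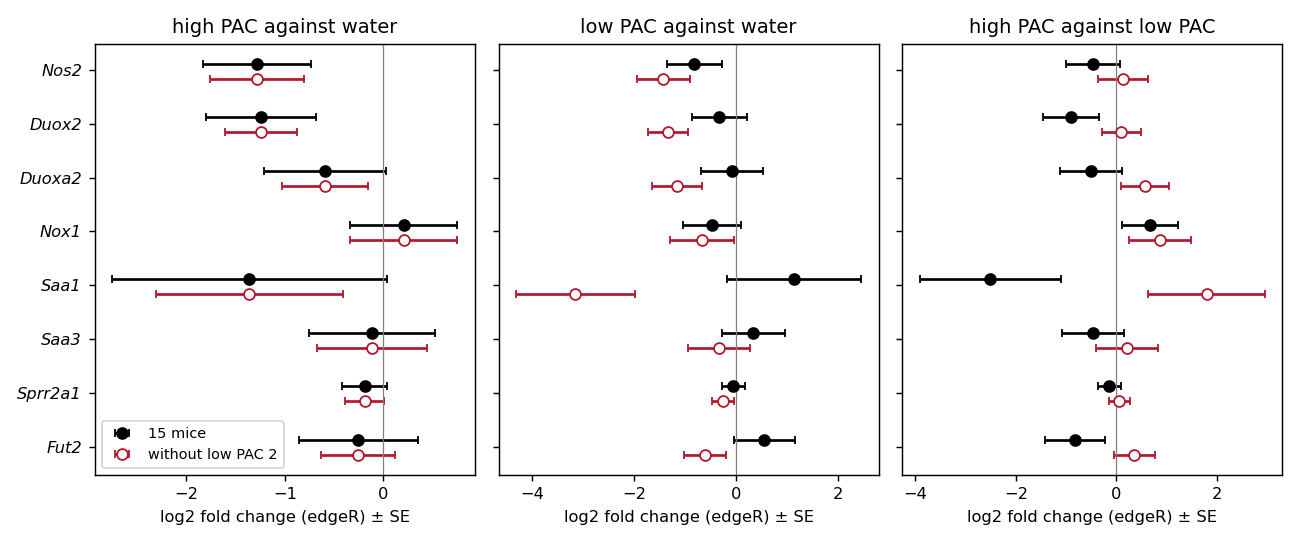
Log2 fold changes of the 8 tested genes (edgeR, bars are SE) in the 3 comparisons, with all 15 mice (black) and without low PAC 2 (open red). Leaving out this mouse moved Saa1 in low PAC against water from 1.15 to -3.16, while high PAC against water stayed in place.

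Low PAC was compared with water in the same model. With all 5 mice the log2 fold changes were -0.82 for Nos2 (SE 0.54), -0.32 for Duox2, -0.08 for Duoxa2, -0.47 for Nox1, 1.15 for Saa1 (SE 1.32), 0.35 for Saa3, -0.05 for Sprr2a1 and 0.56 for Fut2. No member had an unadjusted edgeR p under 0.05, a threshold that 2.21% of all genes passed as lower and 1.40% as higher, and the exact permutation p was 0.079 for Nos2 and 0.246 for Duox2, with none under 0.05 among the members against 1.27% of all genes as lower and 3.48% as higher. edgeR called 0% of all genes at the adjusted threshold here. Of the 8 members, 5 were lower and 3 higher, with a median of -0.07 against -0.01 over all genes, of which 54.5% were below 0.

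Several of these values turned on low PAC 2. It was the highest of the 15 mice in 7 of the 8 members tested, the exception being Nox1, while it was the highest in 2.49% of all genes tested. Against the median of the other 14 mice it held 48.0-fold more Saa1, 6.49-fold more Fut2, 4.58-fold more Duox2, 4.38-fold more Duoxa2, 3.99-fold more Saa3, 2.75-fold more Nos2 and 1.57-fold more Sprr2a1. Nox1 was close to that median (1.05-fold). The Nos2 value of low PAC 2, 78.4 FPKM, was next to that of water 4, 78.1 FPKM, so for this gene the mouse stood apart from its group and not from the water mice.

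The remaining 4 low PAC mice were therefore also compared with water. Since the mouse was set aside for its values of these same genes, the results describe the other mice and are no independent test. The log2 fold change was then -1.42 for Nos2, -1.33 for Duox2, -1.16 for Duoxa2 and -3.16 for Saa1, with an edgeR adjusted p of 0.990 each. By exact permutation (126 splits, smallest p 0.0079) the p-values were 0.016 for Nos2, 0.016 for Duox2, 0.024 for Duoxa2 and 0.032 for Saa1. Thus 4 members were lower at an exact p under 0.05, where 1.15% of all genes were, and at an unadjusted edgeR p under 0.05, where 2.13% were. In Nos2 and Duox2 the 4 mice did not overlap with water, which held as lower values for 0.292% of all genes. Their means were 22.9 ± 5.19 FPKM for Nos2 and 5.95 ± 1.81 FPKM for Duox2 (SD, n = 4). Saa3 (-0.33), Sprr2a1 (-0.25), Nox1 and Fut2 (-0.61) remained within the spread between mice.

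High PAC and low PAC were given at the same dose and differ in the length of their polymers. With all mice, no member differed between them by an exact permutation p or an unadjusted edgeR p under 0.05 (over all genes 2.05% were lower and 1.84% higher by edgeR, 0.799% lower and 3.7% higher by permutation, and 0% passed the adjusted threshold). Lower values were fitted for 7 of the 8 members and for 48.6% of all genes. The log2 fold change of high PAC against low PAC was -0.47 for Nos2, with a 95% interval of -1.62 to 0.68, and -0.91 for Duox2, with an interval of -2.10 to 0.27. For Saa1 it was -2.51, with an interval of -5.49 to 0.48, and for Fut2 -0.82, with an interval of -2.09 to 0.46. These intervals hold differences of more than 2-fold, so they do not show that the fractions act alike. The Saa1 value depended on the tool, with -0.17 under limma-voom and -0.35 with the replicate number as a block in edgeR. Without low PAC 2 the sign turned in edgeR for 7 members, to 0.14 for Nos2, 0.10 for Duox2, 0.56 for Duoxa2, 1.80 for Saa1, 0.21 for Saa3, 0.06 for Sprr2a1 and 0.35 for Fut2. On log2(FPKM + 0.1) the mean differences of Nos2 and Duox2 stayed below 0 without this mouse. The comparisons with water share the water mice.

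Several members varied together from mouse to mouse. The 36 pairs were compared by the log2(FPKM + 0.1) values less the group mean, with 100000 permutations of mice within groups and adjustment over the 36 pairs. Of these, 8 pairs had an adjusted permutation p under 0.05, all with a positive r, and r over all pairs had a median of 0.53 and ran from -0.17 to 0.96. The share of such pairs over all genes is not given here, so the count does not set the members apart from other genes. The closest pair was Duox2 with Duoxa2 (r = 0.962, permutation p = 4e-05, adjusted 0.0014; rho = 0.918, permutation p = 0.00012, adjusted 0.0043; 15 mice). Duox2 with Fut2 followed (r = 0.892, permutation p = 0.00024, adjusted 0.0043; rho = 0.846, permutation p = 0.00039, adjusted 0.0070). Saa1 with Fut2 had r = 0.836 (permutation p = 0.00089, adjusted 0.0080) and rho = 0.771 (permutation p = 0.0026, adjusted 0.023). Nos2 correlated with Duoxa2 at r = 0.818 (permutation p = 0.0024, adjusted 0.017; rho = 0.711, permutation p = 0.011, adjusted 0.059) and with Duox2 at r = 0.801 (permutation p = 0.0038, adjusted 0.023; rho = 0.689, permutation p = 0.0085, adjusted 0.051). The other 3 pairs were Duoxa2 with Fut2 (r = 0.851; rho = 0.789, adjusted permutation p of rho 0.021), Duox2 with Saa1 (r = 0.797; rho = 0.714, adjusted 0.051) and Duoxa2 with Saa1 (r = 0.787; rho = 0.679, adjusted 0.089). By rho, 4 of the 8 pairs had an adjusted permutation p under 0.05.

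**Figure D3:**
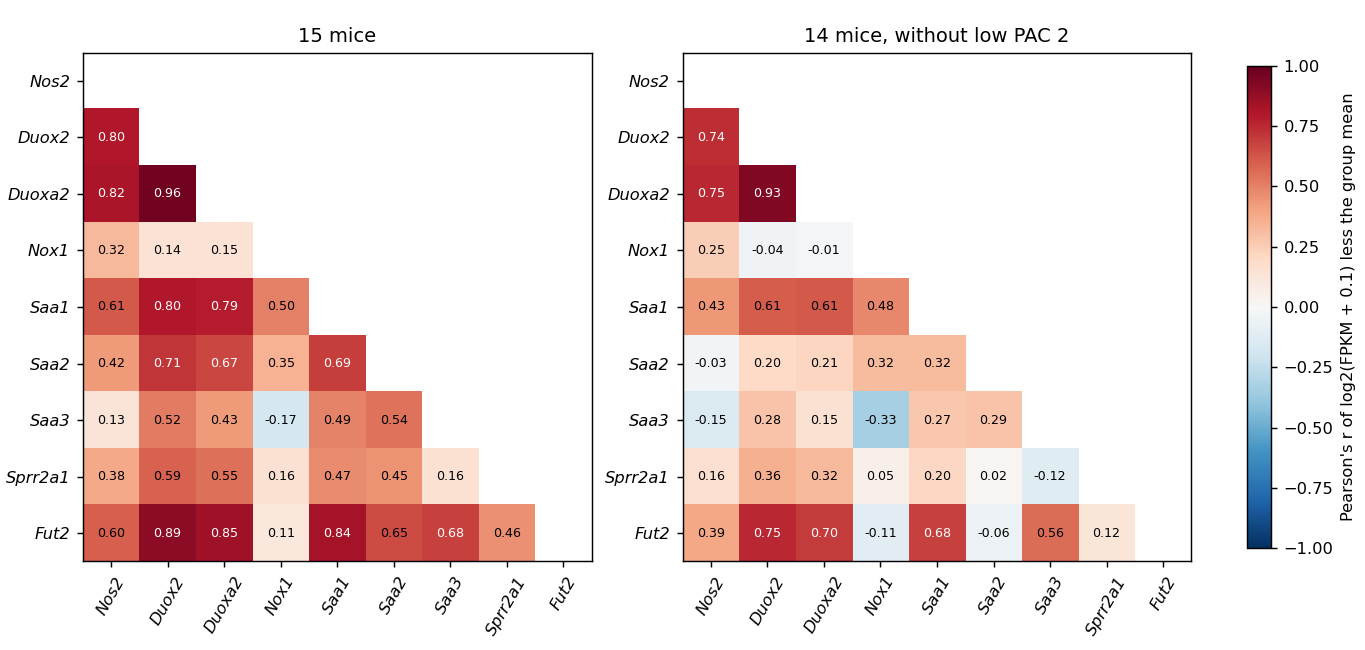
Pearson's r (colour and printed value) of each pair of the 9 genes across mice, on log2(FPKM + 0.1) less the group mean, with all 15 mice (left) and without low PAC 2 (right). The pairs among Nos2, Duox2 and Duoxa2 stayed at 0.74 or above in both, while the r of Saa2 with Duox2 went from 0.71 to 0.20.

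Without low PAC 2, 3 of the 8 pairs kept an adjusted permutation p under 0.05 and the median r fell to 0.27. They were Duox2 with Duoxa2 (r = 0.929, adjusted permutation p = 0.0086; rho = 0.917, adjusted 0.0083), Duox2 with Fut2 (r = 0.750, adjusted 0.021; rho = 0.745, adjusted 0.056) and Duoxa2 with Fut2 (r = 0.698, adjusted 0.041; rho = 0.732, adjusted 0.058). By rho, only Duox2 with Duoxa2 passed. Nos2 with Duox2 kept r = 0.742 at an unadjusted permutation p of 0.023 (adjusted 0.138). When the 2 mice lying farthest from the first gene's median were left out, 2 pairs remained, Duox2 with Duoxa2 (r = 0.880, adjusted permutation p = 0.024) and Saa1 with Fut2 (r = 0.808, adjusted 0.024). The correlation of Nos2 with Duox2 then had r = 0.431 (adjusted permutation p = 0.562) and that of Duox2 with Fut2 r = 0.679 (adjusted permutation p = 0.213), so neither passed the adjusted threshold without low PAC 2 and high PAC 4. Leaving out the farthest mice narrows the range, and Duox2 with Fut2 still had an unadjusted permutation p of 0.024. Nox1, Saa2, Saa3 and Sprr2a1 took part in none of the 8 pairs.

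**Figure D4:**
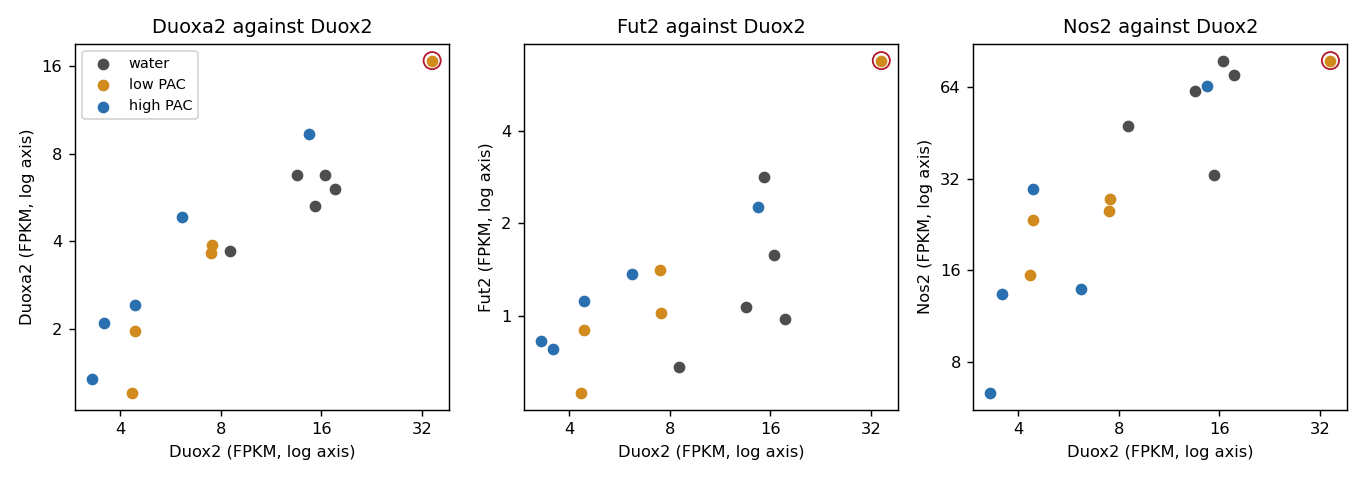
FPKM (log axes) of Duoxa2, Fut2 and Nos2 against Duox2, 1 point per mouse and colours by group, with low PAC 2 ringed. The highest Duox2 and Duoxa2 values were both in low PAC 2, and high PAC 4 (14.7 FPKM of Duox2) lay apart from the other high PAC mice, whose Duox2 was 3.30 to 6.15 FPKM.

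Across the 12428 genes with a mean of at least 1 FPKM, the genes whose variation was most like that of Duox2 were Duoxa2 (rho = 0.918), Gpx2 (0.886), Prss27 (0.886), Mfsd2a (0.871) and Cd14 (0.864), over 15 mice and on the same scale. Gpx2 is a glutathione peroxidase of the gut epithelium that reduces hydrogen peroxide, and Cd14 is a receptor for bacterial lipopolysaccharide. For Saa1 they were Lrrc42 (0.950), Reg3b (0.914), Arhgef10l (0.900), Reg3g (0.893) and Kbtbd8 (0.861). For Nos2 they were Tmem267 (0.796), Erdr1 (0.789), Socs1 (0.782), Slc11a2 (0.761) and Ppp1r7 (0.750). Socs1 is an inhibitor of cytokine signalling and Slc11a2 an iron transporter. Without low PAC 2, Pearson's r of the 5 genes ran from 0.796 to 0.929 with Duox2, from 0.806 to 0.914 with Saa1 and from 0.555 (Tmem267) to 0.837 (Socs1) with Nos2. Other members ranked lower among the 12428 genes. For Duox2, Fut2 ranked 7th, Saa1 55th, Nos2 72nd, Saa3 311th and Sprr2a1 1687th by rho. For Saa1, Fut2 ranked 32nd, Duox2 64th, Duoxa2 91st, Saa3 463rd, Nos2 703rd and Sprr2a1 945th. For Nos2, Duoxa2 ranked 11th, Duox2 13th, Fut2 130th, Saa1 328th, Sprr2a1 2925th and Saa3 3779th. All genes of a mouse come from 1 library, and these likenesses are descriptions.

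The wider list of inducible epithelial defence genes held 27 genes, of which 20 were tested. None passed the adjusted edgeR threshold in any comparison. In high PAC against water 2 were lower and 0 higher at an unadjusted edgeR p under 0.05, against 10.4% lower and 4.37% higher over all genes, and the list median was -0.11 against 0.00. The pair that were lower, named here after their values were seen, were the chemokine Cxcl16 (log2 fold change -0.53) and the mucin Muc13 (-0.48). The 4 genes named by fold change and level, which are Reg3b, Reg3g, Dmbt1 and Slc6a14, were not among them. Reg3b, an antibacterial lectin, had 4050 ± 1422 FPKM with water, 3004 ± 3742 FPKM with low PAC and 2073 ± 1460 FPKM with high PAC (SD, n = 5). Reg3g, a related lectin, had 1947 ± 870 FPKM, 1529 ± 2347 FPKM and 786 ± 608 FPKM, and a log2 fold change of -1.40 in high PAC (SE 0.76, edgeR adjusted p = 0.393). Dmbt1, a mucosal glycoprotein that binds bacteria, had 134 ± 50.2, 139 ± 106 and 88.8 ± 22.3 FPKM.

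In this list too, low PAC 2 held the highest value of 15 mice in 6 of the 20 genes tested, namely Reg3b (9637 FPKM), Reg3g (5722 FPKM), Dmbt1 (327 FPKM), Slc6a14 (13.1 FPKM), Pigr and Muc13. Slc6a14, an amino acid transporter, was at most 0.48 FPKM in the other 14 mice. In low PAC against water it had a log2 fold change of 4.12 (SE 1.35, edgeR adjusted p = 0.976), which rests on this mouse. The summed level of the list was 20724 FPKM in low PAC 2, against 7570 to 14189 FPKM in the water mice.

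**Figure D5:**
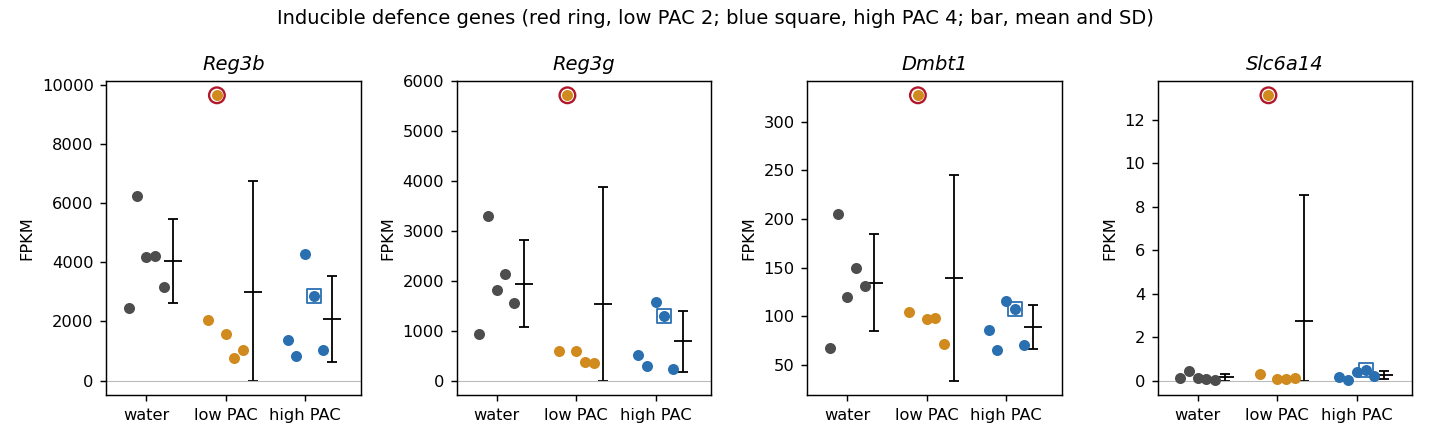
FPKM of Reg3b, Reg3g, Dmbt1 and Slc6a14 (vertical axes, 1 scale per gene) in each mouse by group, with bars for the mean and SD, stopped at 0. The ringed mouse, low PAC 2, was the highest in all 4 panels, with 13.1 FPKM of Slc6a14 against at most 0.48 FPKM elsewhere.

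Of 23 other genes of nitric oxide and superoxide production, 19 were tested and none passed the adjusted edgeR threshold. In high PAC against water, 2 were higher and 0 lower at an unadjusted edgeR p under 0.05, against 4.37% higher and 10.4% lower over all genes. Both are enzymes that rebuild arginine from citrulline. Ass1 had 8.46 ± 2.79 FPKM with water and 12.1 ± 0.71 FPKM with high PAC (log2 fold change 0.43, SE 0.16, edgeR adjusted p = 0.268), and Asl had 9.97 ± 0.525 and 12.4 ± 2.06 FPKM (0.22, SE 0.09, adjusted 0.302; SD, n = 5). The highest Asl value of all mice, 15.91 FPKM, was that of high PAC 3, the library that stood apart. The other high PAC mice had 12.42, 11.27, 10.67 and 11.77 FPKM of Asl, against 9.11 to 10.49 FPKM in the water mice. For Ass1, high PAC 3 had 11.68 FPKM, inside the range of the other high PAC mice. It was the highest mouse in 7 of the 19 genes tested. Gch1, which makes the cofactor of nitric oxide synthases, had a log2 fold change of -0.28, and Arg2, an arginase, -0.28. The median of the list was 0.01 in high PAC and -0.02 in low PAC. Low PAC 2 was the highest mouse in 1 of these 19 genes, Gch1, at 6.28 FPKM.

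Of 24 genes of interleukin-22 and interleukin-17 signalling, 17 were tested. In high PAC against water 6 were lower and 1 higher at an unadjusted edgeR p under 0.05, where 10.4% of all genes were lower and 4.37% higher, and none passed the adjusted threshold. The list median was -0.14 in high PAC and -0.15 in low PAC. Il22ra1, the epithelial receptor subunit for interleukin-22, had 36.6 ± 0.827 FPKM with water and 28.4 ± 7.18 FPKM with high PAC (log2 fold change -0.46, SE 0.14, edgeR adjusted p = 0.211). Stat3, which carries the interleukin-22 signal to the nucleus, had -0.32 (SE 0.12, edgeR adjusted p = 0.260). High PAC 3, the library that stood apart, had the lowest value of the 15 mice for both, with 18.3 FPKM of Il22ra1 and 24.1 FPKM of Stat3, and the other high PAC mice had 26.1, 27.0, 36.3 and 34.3 FPKM of Il22ra1 against 35.5 to 37.4 FPKM in the water mice. Il17re, an epithelial receptor for interleukin-17C, was higher, with 2.80 ± 0.251 FPKM with water, 3.79 ± 0.489 FPKM with low PAC and 3.82 ± 0.418 FPKM with high PAC, and its water range did not overlap with either PAC group, as for 3.99% of all genes in high PAC and 0.494% in low PAC (0.38 in high PAC, SE 0.11, edgeR adjusted p = 0.201). Low PAC 2 was the highest mouse in none of the 17 genes. Beside this list, 8 of 9 markers of T and innate lymphoid cells were below water in the high PAC fit (median -0.19; 49.5% of all genes were below 0). In the low PAC fit 9 of 9 were (median -0.31; 54.5% of all genes), and the part of these cells in the list was not tested.

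Markers of other cell types were set beside low PAC 2. Its B cell list summed to 9.16 FPKM (9th of 15 mice), its macrophage and neutrophil list to 98.4 FPKM (9th; 85.5 to 223 FPKM over the mice) and its hepatocyte list to 2.38 FPKM, the lowest of the 15. The hepatocyte sums were small in all mice, at most 6.26 FPKM, and only 3 of the 8 genes had enough counts to be tested. The neutrophil gene Mpo was listed in no mouse. The list of the proximal small intestine summed to 291 FPKM in low PAC 2, also the lowest of the 15, against 545 to 1199 FPKM in the water mice, and the part of this in its values was not tested. A sum follows the most abundant genes, and low PAC 2 was the highest mouse in 1 of the 8 tested proximal genes. The proximal list also differed between the groups, with medians of 846 FPKM in the water mice, 597 FPKM in the low PAC mice and 608 FPKM in the high PAC mice. At an unadjusted edgeR p under 0.05, 4 of its 8 tested genes were lower in high PAC (10.4% over all genes) and 3 of 8 in low PAC (2.21% over all genes). The list was chosen with earlier results of these data known, and it holds a gene that the authors reported as lower in these mice. These counts are therefore a description and no independent test. The distal ileum list summed to a median of 9770 FPKM in the water mice, 10119 FPKM in the low PAC mice and 10256 FPKM in the high PAC mice, while in the fit 7 of its 9 tested genes were below water in high PAC (median -0.15), 2 of them at an unadjusted edgeR p under 0.05, and 1 of these, the nucleoside transporter Slc28a2, was among the 2 genes that passed the adjusted threshold. All 8 smooth muscle genes and all 7 mesothelium genes lay above water in the fit of both PAC groups, with medians of 0.44 and 0.90 in high PAC and 0.33 and 0.59 in low PAC and 0 genes at an unadjusted edgeR p under 0.05. Adipocyte genes were above water in 7 of 8 in each PAC group (medians 0.61 and 0.52). Over all genes, 49.5% were below water in the high PAC fit and 54.5% in the low PAC fit. At an unadjusted edgeR p under 0.05, 4.37% of all genes were higher in high PAC and 1.40% in low PAC. Of 10 macrophage and neutrophil genes, which mark cells that can also make Nos2, 8 were below water in high PAC (median -0.16, 2 at an unadjusted edgeR p under 0.05) and 5 in low PAC (median -0.02). Of 8 epithelial markers, 6 were below water in high PAC (median -0.17, 2 at an unadjusted edgeR p under 0.05, where 10.4% of all genes were lower). In low PAC 6 were below water as well (median -0.08, 0 at this threshold). Whether these shares of cells or the place along the ileum from which tissue was taken bear on Nos2 and Duox2 was not tested. The B cell sums ran from 8.36 to 169.5 FPKM with water (median 86.4), 8.69 to 84.8 FPKM with low PAC (median 10.2) and 6.28 to 251.5 FPKM with high PAC (median 8.90), and high PAC 4, the highest high PAC mouse for Nos2, had 8.78 FPKM. In the fit all 10 B cell genes were below water in low PAC (median -1.19), and 8 of 10 were above water in high PAC (median 0.13). All 10 were higher in high PAC than in low PAC (median 1.36). In each comparison 0 had an unadjusted edgeR p under 0.05.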

How the data were processed

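Ileum RNA of 15 mice was sequenced by the authors on a BGISEQ-500 sequencer (paired-end, 100 bp), cleaned with SOAPnuke and, by the methods, mapped to mm10 with Bowtie2. The submitters' processing notes name HISAT and DESeq2 instead. The counting tool is not given in the sources used here. The authors deposited 1 table per mouse with an expected count per gene, which is not normalized, and an FPKM value scaled by gene length and library. The transcript length they deposited was not used in a test. Genes under 0.01 FPKM were not listed and were taken as 0. Each mouse had between 15963086 and 17903886 expected counts, which makes counting error small beside the spread between mice, apart from members near 0.

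Rounded expected counts were tested with edgeR 4.0.16 (TMM, quasi-likelihood, filter on low counts) in R 4.3.3 over 14386 genes, in 1 model of the 3 groups, with Benjamini-Hochberg adjustment. The methods name NOIseq, which gives no p-value per gene. The standard error was taken from the F statistic. Members were also compared by two-sided exact permutation of log2(FPKM + 0.1), and correlated after subtraction of the group mean. The members and gene lists were chosen with earlier results of these data known. All 9 members are named, with the 4 genes of each oxidant, cytokine and defence list that have a mean of at least 1 FPKM and the largest fold change in high PAC, paralogs of at least 1 FPKM, and the 5 genes most alike to Nos2, Duox2 and Saa1. One gene that this rule selects is not reported here. Pigr, Cxcl16, Muc13 and Slc28a2 were named after their values were seen. Promoters were from RefSeq (GRCm38.p6) and gene positions from GENCODE (GRCm38). Alternatives were DESeq2 1.42.0, limma 3.58.1 (voom), RLE and upper-quartile normalization, no filter, a replicate block, other pseudocounts and each mouse left out. Summed paralogs were added after seeing the data. The scripts were tested on simulated data.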

Additional observations from a re-analysis of the deposited data

Results flagged for a closer look

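The highest or lowest mouse of a group lay farther from the other 4 than the Dixon limit of 0.71 of the group's range in 9 of 27 combinations of gene and group, and 6 of the 9 were low PAC 2. For a group not picked by its values, chance alone flags about 1 in 20. The members and low PAC 2 were singled out with these values known, and the genes of 1 mouse are not independent. The count of flags is therefore a description and no test. Low PAC 2 was flagged for Nos2 (78.4 FPKM), Duox2 (34.4 FPKM), Duoxa2 (16.6 FPKM), Saa1 (165 FPKM), Fut2 (6.78 FPKM) and Saa2 (0.53 FPKM). High PAC 4 was flagged for Duox2 (14.7 FPKM). The Saa2 values of water 3 (0.11 FPKM) and high PAC 3 (0.11 FPKM) were flagged because no other mouse of their group listed the gene, and each rests on 1 expected count. Low PAC 2 was likewise the only low PAC mouse to list Saa2, on 5 expected counts.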

How the results depend on the processing

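The lower Nos2 and Duox2 of high PAC against water kept their direction in every alternative run, from -2.01 to -1.03 for Nos2 and from -1.82 to -1.07 for Duox2 with 1 mouse left out, and no member passed an adjusted p under 0.05 in edgeR, limma-voom or, where it gave one, DESeq2. Of the members' fold changes under another tool, normalization or filter, 157 kept their sign and side of the threshold and 4 turned. These were Saa3 in high PAC against water (limma-voom 0.31, replicate block 0.061) and Saa1 in low PAC against water (limma-voom -2.37, replicate block -0.62). With log2(FPKM + 0.01) the permutation difference of Saa1 between high and low PAC turned to 0.34. The cause was not tested. DESeq2 called 136 genes in high PAC against water (25 higher, 111 lower) and 2 in low PAC against water, where edgeR called 2 and 0. Upper-quartile normalization moved the split at an unadjusted p under 0.05 in high PAC from 628 higher and 1500 lower to 1505 higher and 816 lower. The deviations of mice with the same replicate number correlated over 0.1 in 3 of 5 pairs for high PAC with water (mean 0.149), 2 of 5 for low PAC with water (mean 0.123) and 0 of 5 for high with low PAC (mean -0.123). Not every pair passed, so the mice were taken to share only a number, and the replicate block gave 2, 0 and 0 called genes.

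With 1 mouse left out, edgeR called 2 to 11 genes in high PAC against water (11 without high PAC 2, 4 without water 2) and 0 to 1 in low PAC against water (1 without low PAC 2). In high PAC against water, Nox1 then ran from -0.10 to 0.49, Saa3 from -0.41 to 0.29 and Fut2 from -0.58 to 0.14. Duoxa2 ran from -1.20 to -0.37, Saa1 from -2.185 to -0.69 and Sprr2a1 from -0.39 to -0.05, and these kept their sign. In low PAC against water, Duoxa2 ran from -1.16 to 0.18, Saa1 from -3.16 to 1.82, Saa3 from -0.33 to 0.75, Sprr2a1 from -0.25 to 0.088 and Fut2 from -0.61 to 0.96. In high PAC against low PAC, Nos2 ran from -1.19 to 0.14, Duox2 from -1.50 to 0.10, Duoxa2 from -1.11 to 0.56, Saa1 from -3.33 to 1.80, Saa3 from -0.73 to 0.21, Sprr2a1 from -0.34 to 0.059 and Fut2 from -1.14 to 0.35. Without low PAC 2 the permutation differences that turned were those of Saa2 (-0.21) and Fut2 (-0.42) in low PAC against water, and of Duoxa2 (0.37), Saa1 (1.34), Saa2 (0.21), Saa3 (0.33), Sprr2a1 (0.037) and Fut2 (0.32) in high PAC against low PAC. Members with an exact permutation p under 0.05 in low PAC against water went from 0 to 4, and pairs with an adjusted permutation p under 0.05 from 8 to 3, or to 2 without the 2 mice farthest from the median. Few counts limit Saa2, Saa3 and Nox1, and differences between mice limit the rest.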
